A study of Mus musculus with 64 samples.

Results

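Livers in which Acsf3 had been knocked down (sh-Acsf3) were compared with livers given a control hairpin (sh-Ctl) at zeitgeber time 6 (ZT6), 6 h after lights on and so in the middle of the light phase. The comparison holds 8 of the 64 libraries of the time series, 4 for each hairpin, chosen by the treatment, time and replicate in their labels. All mice were male C57BL/6J fed ad libitum, and both groups had received an AAV8 vector 4 weeks earlier, carrying a short hairpin RNA against Acsf3 in sh-Acsf3 mice and a control hairpin in sh-Ctl mice. AAV8 is a viral serotype that enters mainly hepatocytes. The promoter of the hairpin, the vector dose and the age of the mice are not given in the sources used here. The labels do not say that replicates are separate animals, so p-values measure the spread between these samples. Transcripts were counted by BRB-seq, a bulk method that barcodes the 3′ ends of mRNA and counts unique molecular identifiers (UMIs, tags that mark single molecules). Levels are given as CPM, the UMI counts of a gene scaled to a common library size, with library sizes adjusted by the trimmed mean of M-values (TMM).

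Acsf3 encodes acyl-CoA synthetase family member 3, a mitochondrial enzyme that joins malonate to coenzyme A. Its product, malonyl-CoA, feeds mitochondrial fatty acid synthesis, which supplies the lipoic acid cofactor of several dehydrogenases, and is the donor for malonylation of lysines in mitochondrial proteins. The liver is strongly rhythmic, and mice eat mainly in the dark, so the middle of the light phase falls in the daily period of little food intake, before the evening peak of the clock repressor Per2.

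Library totals at ZT6 were 1991894 to 8005185 UMIs in sh-Acsf3 livers and 3257385 to 6063636 UMIs in sh-Ctl livers, with 13786 to 16129 and 14151 to 15995 genes detected. All 16 hepatocyte markers were tested, with a median log2 difference of 0.02, and none passed the test. The share of UMIs from mitochondrially encoded genes was 20.1% ± 3.42 in sh-Acsf3 livers and 17.2% ± 1.68 in sh-Ctl livers (SD, n = 4 each). It was 25.0% in sh-Acsf3 replicate 3, against 17.1% to 19.5% in the other sh-Acsf3 libraries and 14.9% to 18.5% in sh-Ctl livers, and results without that library are given where a call ends. A pair of sh-Ctl libraries also stood apart. Replicate 3 held pancreas RNA, with 1011 CPM summed over pancreas enzyme genes, against 12.1 to 16.4 CPM in the other 7 libraries. Replicate 1 was the deepest sh-Ctl library and differed from the other 3 in genes of lipid synthesis and antigen presentation.

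At ZT6, 22 of 10097 tested genes (0.218%) differed between the hairpins at an adjusted p under 0.05 by edgeR's quasi-likelihood test with Benjamini-Hochberg adjustment over all tested genes. Of these, 19 (0.188%) were higher and 3 (0.0297%) were lower in sh-Acsf3 livers, and 18 of the rises and 1 fall were at least 2-fold. In each of the 22 the values of the 2 groups did not overlap, which was the case for 401 of all tested genes (3.97%). At an unadjusted p under 0.05, 358 genes were higher and 356 lower, and the median log2 difference of all genes was -0.0083. The spread behind this test was shared over all 64 libraries. A fit to the 8 ZT6 libraries alone called 5 genes, 3 of them among the 22 (Acsf3, Ccl5 and Cdkn2c). The low-count filter of that fit left Mmp12, Cd3g, Ccl4 and Adamtsl2 untested, and the rest of the 22 did not pass in it. Leaving out single libraries gave between 8 calls (without sh-Acsf3 replicate 1) and 43 (without sh-Ctl replicate 1), and 5 of the 22 genes, Acsf3, Ccl5, Mmp12, Cdkn2c and Adamtsl2, passed in every such fit. The spread of genes around 0 and the 22 that passed are seen in the plot of all tested genes.

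**Figure D1:**
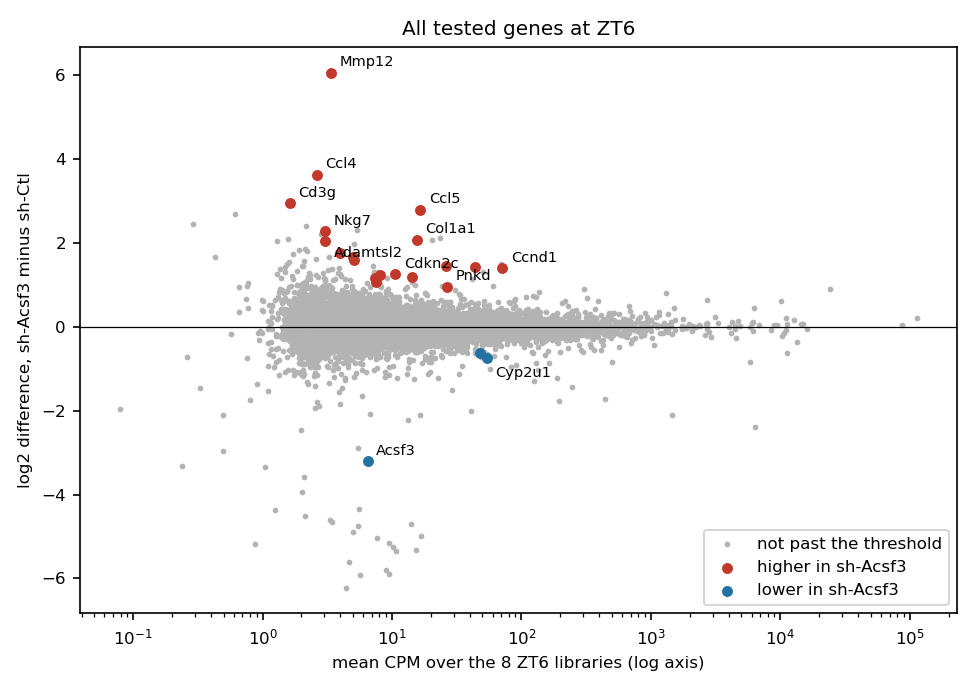
Log2 difference between sh-Acsf3 and sh-Ctl livers at ZT6 against the mean CPM of the 8 libraries (log axis), with each point a gene. The 19 genes that were higher are red and the 3 that were lower are blue, mostly at or beyond the edge of the grey cloud, and the grey points at differences below -4 include the pancreas enzyme genes carried by 1 sh-Ctl library.

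Acsf3 itself was low in every sh-Acsf3 liver. It had 1.12, 0.884, 0.299 and 3.69 CPM in sh-Acsf3 livers (3, 7, 1 and 8 UMIs), against 12.3, 11.9, 11.2 and 10.9 CPM in sh-Ctl livers (90, 43, 35 and 36 UMIs). The sh-Ctl values were tight and the sh-Acsf3 values were spread, with replicate 4 the highest. The fitted log2 difference was -3.21 ± 0.38 (SE), or 10.8% of the sh-Ctl level by the fit, with an edgeR adjusted p of 7.55e-08. Mean levels were 1.50 CPM in sh-Acsf3 livers and 11.6 CPM in sh-Ctl livers. The gene spans chr8:122775486-122817880 in GRCm38, plus strand.

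Of 20 tested genes of malonyl-CoA metabolism, mitochondrial fatty acid synthesis and lipoylation, Acsf3 was the only one to pass, and the list's median log2 difference was -0.11. Mlycd, the decarboxylase that breaks down malonyl-CoA, differed by 0.03 ± 0.13, and Mcat, which loads malonyl groups onto the mitochondrial acyl carrier protein, by 0.01 ± 0.15. Sirt5, the mitochondrial deacylase that removes malonyl groups from lysines, differed by -0.14 ± 0.24. Lias, the lipoic acid synthase, was 1 of the 192 genes (1.9%) whose groups did not overlap with sh-Acsf3 lower. It had 31.3, 31.4, 29.9 and 29.1 CPM in sh-Acsf3 livers, against 35.7, 32.2, 40.2 and 33.1 CPM in sh-Ctl livers, and at a log2 difference of -0.21 ± 0.16 it did not pass (edgeR adjusted p = 0.875). The cytosolic and outer-membrane carboxylases that also make malonyl-CoA, Acaca and Acacb, differed by -0.46 ± 0.31 and -1.21 ± 0.54, and neither passed. Without sh-Ctl replicate 1 these differences were 0.24 for Acaca and -0.34 for Acacb. Acacb had 19.8, 5.05, 22.7 and 10.6 CPM in sh-Acsf3 livers, against 70.8, 21.9, 15.0 and 15.8 CPM in sh-Ctl livers, and sh-Ctl replicate 1 stands well above the rest.

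Among the 19 genes that rose, 4 belong to the list of stellate cell and fibroblast markers, where stellate cells are the liver's collagen-making pericytes, and 4 genes outside that list, Adamts2, Adamtsl2, Ccdc80 and Olfml3, encode proteins of the matrix or its processing. Both chains of type I collagen, the type III collagen chain Col3a1, the procollagen-trimming protease Adamts2, the microfibril-associated glycoprotein Adamtsl2, the secreted matrix proteins Ccdc80 and Olfml3, and the stellate cell globin Cygb all rose in sh-Acsf3 livers. These are bulk libraries, in which more cells of a type and more RNA per cell cannot be told apart. Putting the 8 together was a choice made after seeing which genes passed, and Adamts2 and Adamtsl2 were named after their values had been seen.

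Col1a1 had 36.9, 9.60, 38.0 and 17.5 CPM in sh-Acsf3 livers, against 7.62, 6.11, 4.78 and 3.95 CPM in sh-Ctl livers. The log2 difference was 2.08 ± 0.44 (edgeR adjusted p = 0.013), and replicate 2 of sh-Acsf3 lay just above the highest sh-Ctl value. Col1a2 had 65.3, 21.1, 45.1 and 24.5 CPM in sh-Acsf3 livers, against 17.3, 13.3, 10.5 and 13.7 CPM in sh-Ctl livers, a log2 difference of 1.46 ± 0.31 (edgeR adjusted p = 0.012). Replicates 1 and 3 of sh-Acsf3 were again the highest, and replicate 2 the lowest of its group. The same order held for Col3a1, with 98.1, 33.7, 80.7 and 43.4 CPM in sh-Acsf3 livers, against 32.8, 22.5, 22.9 and 14.0 CPM in sh-Ctl livers (log2 difference 1.43 ± 0.32, edgeR adjusted p = 0.0239). None of the 3 collagen calls held in the leave-one-out fits without sh-Ctl replicate 2, 3 or 4 or sh-Acsf3 replicate 1 or 3. In those fits the difference was 1.79 to 2.11 for Col1a1, 1.11 to 1.46 for Col1a2 and 1.16 to 1.43 for Col3a1, with edgeR adjusted p of 0.0554 to 0.26. By limma-voom, with all libraries, Col1a1 (1.78, adjusted p 0.0886) and Col3a1 (1.32, adjusted p 0.0586) did not pass. By edgeR on the 8 ZT6 libraries alone none of the 3 collagens passed. The differences there were 2.08 for Col1a1 (adjusted p 0.516), 1.46 for Col1a2 (adjusted p 0.525) and 1.44 for Col3a1 (adjusted p 0.608). Of the libraries without which the calls ended, sh-Acsf3 replicate 3 is the library with the highest mitochondrial share, and the part of that share in the result was not tested.

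Adamtsl2 had 5.60, 2.90, 7.47 and 4.16 CPM in sh-Acsf3 livers, against 1.36, 0.555, 0.956 and 1.52 CPM in sh-Ctl livers. Its difference of 2.05 ± 0.37 (edgeR adjusted p = 0.00143) passed in every leave-one-out fit. Adamts2 had 7.84, 4.04, 7.77 and 4.62 CPM in sh-Acsf3 livers, against 0.681, 3.05, 1.91 and 1.82 CPM in sh-Ctl livers (1.77 ± 0.37, edgeR adjusted p = 0.00986). It missed the threshold without sh-Ctl replicate 1 or without sh-Acsf3 replicate 1 or 3 (1.35 to 1.64, adjusted p 0.0716 to 0.125). Olfml3 had 12.7, 4.67, 8.37 and 5.54 CPM in sh-Acsf3 livers, against 2.72, 2.22, 2.23 and 2.43 CPM in sh-Ctl livers (1.60 ± 0.33, edgeR adjusted p = 0.00855), and missed it without sh-Acsf3 replicate 1 (1.30, adjusted p 0.162). In all 3 genes, as in the collagens, replicates 1 and 3 of sh-Acsf3 were the highest libraries.

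Ccdc80 had 29.5, 13.3, 23.6 and 14.3 CPM in sh-Acsf3 livers, against 12.4, 6.11, 9.56 and 5.16 CPM in sh-Ctl livers. Its log2 difference was 1.19 ± 0.25 (edgeR adjusted p = 0.012), and it missed the threshold without sh-Ctl replicate 2 or 4 or sh-Acsf3 replicate 1 or 3 (0.97 to 1.10, adjusted p 0.0862 to 0.185). Cygb was more even, with 13.8, 10.6, 12.6 and 8.77 CPM in sh-Acsf3 livers, against 5.58, 4.72, 4.46 and 3.95 CPM in sh-Ctl livers (1.25 ± 0.28, edgeR adjusted p = 0.0221). It missed the threshold without sh-Ctl replicate 2, 3 or 4 or sh-Acsf3 replicate 1 or 3 (1.17 to 1.25, adjusted p 0.0668 to 0.135).

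The start regions of 4 of these matrix genes are shown because they moved together and because short motifs of the general and TGF-beta-linked promoter elements can be read in them. Each runs from 250 bases before to 50 bases after the RefSeq start (GRCm38.p6), and capitals mark matches on either strand to the TATA box (TATAAA), the CCAAT box (CCAAT), the GC box (GGGCGG), the SMAD element (CAGAC) and the AP-1 motif (TGANTCA). The regions are chr6:4505368-4505667, chr1:45311288-45311587, chr11:50601835-50602134 and chr2:27079129-27079428 in the order given, all on the plus strand, and 14 of the 22 genes had an entry in this table.
Col1a2: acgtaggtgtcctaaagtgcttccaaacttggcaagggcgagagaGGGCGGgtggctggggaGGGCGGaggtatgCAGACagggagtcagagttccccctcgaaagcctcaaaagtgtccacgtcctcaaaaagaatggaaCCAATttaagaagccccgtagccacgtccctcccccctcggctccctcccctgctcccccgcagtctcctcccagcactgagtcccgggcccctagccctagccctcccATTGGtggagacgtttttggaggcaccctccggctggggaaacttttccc
Col3a1: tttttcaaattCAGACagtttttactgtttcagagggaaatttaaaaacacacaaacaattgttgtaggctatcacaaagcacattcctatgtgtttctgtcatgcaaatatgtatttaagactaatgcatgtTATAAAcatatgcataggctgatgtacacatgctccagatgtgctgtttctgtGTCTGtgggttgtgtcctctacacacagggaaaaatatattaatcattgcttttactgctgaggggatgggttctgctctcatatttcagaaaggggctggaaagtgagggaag
Adamts2: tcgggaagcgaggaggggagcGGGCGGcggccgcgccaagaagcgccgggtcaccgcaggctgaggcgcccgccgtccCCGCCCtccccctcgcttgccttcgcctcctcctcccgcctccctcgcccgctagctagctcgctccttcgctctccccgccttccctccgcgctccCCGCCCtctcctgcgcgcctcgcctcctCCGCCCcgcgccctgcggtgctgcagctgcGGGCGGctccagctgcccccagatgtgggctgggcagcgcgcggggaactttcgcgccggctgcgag
Adamtsl2: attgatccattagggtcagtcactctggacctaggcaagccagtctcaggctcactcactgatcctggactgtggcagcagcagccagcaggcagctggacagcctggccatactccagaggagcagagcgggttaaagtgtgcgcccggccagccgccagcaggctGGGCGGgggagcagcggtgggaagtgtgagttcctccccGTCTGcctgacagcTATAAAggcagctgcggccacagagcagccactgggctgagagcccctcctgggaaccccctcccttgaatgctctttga
Col1a2 held 2 CCAAT boxes, 2 GC boxes and 1 SMAD element, and Col3a1 held 1 TATA box and 2 SMAD elements. Adamts2 held 5 GC boxes, and Adamtsl2 held 1 TATA box, 1 GC box and 1 SMAD element. The AP-1 letters occur in none of the 4. Such matches are common: among 32851 start regions in the table, 13.6% hold the TATA box letters, 37.4% the CCAAT box, 35.7% the GC box, 49.6% the SMAD element and 7.81% the AP-1 motif. A match describes the sequence and says nothing of which factor binds there.

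Of 34 stellate cell and fibroblast markers 30 were tested, 28 had a difference above 0, and 4 passed (Col1a1, Col1a2, Col3a1 and Cygb, all higher), beside 0.188% of all genes. The list's median log2 difference was 0.66, against -0.0083 for all genes. In 11 of the 30 the groups did not overlap with sh-Acsf3 higher, beside 2.07% of all tested genes. The count of 4 rests on single libraries: it was 0 without sh-Ctl replicate 2, 3 or 4 or sh-Acsf3 replicate 1 or 3, and 9 without sh-Acsf3 replicate 2, with medians of 0.48 to 0.81 over the leave-one-out fits. Summed over the list, levels were 623 to 1063 CPM in sh-Acsf3 livers and 431 to 541 CPM in sh-Ctl livers.

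Members that did not pass the test include quiescent stellate cell genes and other matrix genes. Dcn, the matrix proteoglycan decorin, had 313, 214, 213 and 237 CPM in sh-Acsf3 livers, against 184, 178, 142 and 155 CPM in sh-Ctl livers (0.56 ± 0.15, edgeR adjusted p = 0.11). Col6a3 differed by 1.32 ± 0.34 (edgeR adjusted p = 0.0807), and Sparc, a collagen-binding matrix protein, by 0.66 ± 0.18 (edgeR adjusted p = 0.119). Without sh-Acsf3 replicate 2 both passed (Col6a3 1.57, adjusted p 0.016, and Sparc 0.81, adjusted p 0.026), and Col6a3 did so without sh-Ctl replicate 1 (1.62, adjusted p 0.032). Lrat, which stores retinol esters in quiescent stellate cells, differed by 0.54 ± 0.31, and Reln by 0.36 ± 0.22. Acta2, the smooth muscle actin of activated stellate cells and vessel walls, had 7.09, 3.66, 3.89 and 2.31 CPM in sh-Acsf3 livers, against 3.27, 0.833, 23.3 and 1.52 CPM in sh-Ctl livers, with its highest value in the sh-Ctl library that held pancreas RNA. Its difference was -0.68 with all libraries and 0.98 without that one, and neither passed. Among 23 tested genes of TGF-beta signalling and matrix remodelling 22 were above 0 and the median was 0.40, but 1 passed, the macrophage elastase Mmp12. Serpinh1, the collagen chaperone, had the next smallest p of that list (0.90 ± 0.24, edgeR adjusted p = 0.0888), and passed without sh-Ctl replicate 1 (1.09, adjusted p 0.0354) or sh-Acsf3 replicate 4 (1.01, adjusted p 0.0423).

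Gdf10, Pmepa1 and Robo1 rose as well. Gdf10, a secreted member of the TGF-beta superfamily, had 11.2, 10.4, 12.0 and 7.39 CPM in sh-Acsf3 livers, against 6.26, 5.83, 2.87 and 3.95 CPM in sh-Ctl livers (1.06 ± 0.23, edgeR adjusted p = 0.013). Pmepa1, a membrane protein that is induced by TGF-beta and restrains SMAD signalling, had 13.4, 7.58, 11.7 and 8.77 CPM in sh-Acsf3 livers, against 4.36, 4.72, 2.87 and 6.07 CPM in sh-Ctl livers (1.16 ± 0.27, edgeR adjusted p = 0.0297). Robo1, a receptor for SLIT guidance proteins named after its values had been seen, had 8.21, 8.84, 7.47 and 6.00 CPM in sh-Acsf3 livers, against 3.13, 0.833, 3.82 and 1.52 CPM in sh-Ctl livers (1.68 ± 0.37, edgeR adjusted p = 0.013). In each the groups were separate by a small gap. Leaving out sh-Acsf3 replicate 1 ended all 3 calls. So did sh-Ctl replicates 3 and 4 and sh-Acsf3 replicate 3 for Gdf10 (0.92 to 1.04, adjusted p 0.069 to 0.0956), sh-Ctl replicates 1, 2 and 3 and sh-Acsf3 replicate 3 for Pmepa1 (1.03 to 1.19, adjusted p 0.0833 to 0.233), and sh-Ctl replicates 2 and 4 and sh-Acsf3 replicate 2 for Robo1 (1.44 to 1.67, adjusted p 0.0627 to 0.138), where each range includes the fit without sh-Acsf3 replicate 1.

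Among the other rises, 3 genes are on the list of T and NK cell markers. Ccl5, a chemokine that attracts T cells and is made by cytotoxic lymphocytes, had 40.3, 30.1, 24.8 and 22.2 CPM in sh-Acsf3 livers, against 6.67, 4.16, 2.55 and 1.82 CPM in sh-Ctl livers. The log2 difference was 2.80 ± 0.34 (edgeR adjusted p = 2.26e-07), and it passed in every leave-one-out fit. Ccl4, a related chemokine named after its values had been seen, had 5.97, 2.78, 3.89 and 7.39 CPM in sh-Acsf3 livers, against 0.681, 0, 0 and 0.304 CPM in sh-Ctl livers. Its 67 UMIs in sh-Acsf3 livers and 6 in sh-Ctl livers gave a log2 difference of 3.63 ± 0.73 (edgeR adjusted p = 0.00855), which missed the threshold without sh-Ctl replicate 2 (3.34, adjusted p 0.0508) and, with all libraries, by limma-voom (3.57, adjusted p 0.151). All sh-Acsf3 libraries lay above every sh-Ctl library for both chemokines.

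Nkg7, a granule membrane protein of cytotoxic T and natural killer cells, had 7.84, 3.91, 4.48 and 4.62 CPM in sh-Acsf3 livers, against 1.50, 0.555, 0.637 and 0.911 CPM in sh-Ctl livers (2.29 ± 0.45, edgeR adjusted p = 0.00416). It missed the threshold without sh-Acsf3 replicate 1 (2.06, adjusted p 0.0525). Cd3g, a chain of the T cell receptor complex, had 4.48, 2.78, 1.79 and 2.77 CPM in sh-Acsf3 livers, against 0.545, 0.278, 0 and 0.304 CPM in sh-Ctl livers, from 46 UMIs in sh-Acsf3 livers and 6 in sh-Ctl livers. Its difference was 2.96 ± 0.64 (edgeR adjusted p = 0.013), and it missed the threshold without sh-Ctl replicate 2, 3 or 4 or sh-Acsf3 replicate 1 (2.70 to 2.94, adjusted p 0.0555 to 0.107).

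Of 30 T and NK cell markers only 7 were abundant enough to be tested. All 7 were above 0, 3 passed (Ccl5, Nkg7 and Cd3g), and the median log2 difference was 2.29. The low-count filter keeps genes that reach a minimum count in enough libraries of the series. A marker near 0 in sh-Ctl livers, such as Cd3g, could enter only through sh-Acsf3 libraries. The shared sign, the median and the separation of the groups in the 7 are therefore not independent of the filter. In 6 of the 7 the groups did not overlap, beside 2.07% of all tested genes. The granzyme Gzma had 5.22, 3.41, 2.39 and 4.16 CPM in sh-Acsf3 livers, against 1.09, 0.278, 0.319 and 0.607 CPM in sh-Ctl livers (2.40 ± 0.60, edgeR adjusted p = 0.0744). The T cell receptor constant gene Trbc1 had 4.10, 3.66, 2.69 and 3.69 CPM in sh-Acsf3 livers, against 1.77, 0, 1.27 and 0.304 CPM in sh-Ctl livers (1.81 ± 0.46, edgeR adjusted p = 0.0807). The groups were separate for both genes, and both passed without sh-Ctl replicate 1 (Gzma 3.09, adjusted p 0.0458, and Trbc1 2.72, adjusted p 0.0129). With all libraries both passed by limma-voom (Gzma adjusted p 0.0293, Trbc1 adjusted p 0.0237) and in the fit with the replicate number as a block (0.0498 for Gzma and 0.0478 for Trbc1). Over the leave-one-out fits the list had 1 called gene (without sh-Acsf3 replicate 1) to 6 (without sh-Ctl replicate 1). Among untested markers, Cd8a had 15 UMIs in sh-Acsf3 livers and 1 in sh-Ctl livers and Gzmk had 14 in sh-Acsf3 livers and 0 in sh-Ctl livers. In the opposite direction, the granzyme Gzmb had 7 UMIs in sh-Acsf3 livers and 30 in sh-Ctl livers. Klrk1 had 3 UMIs in sh-Acsf3 livers and 18 in sh-Ctl livers, and Cd4 had 6 in sh-Acsf3 livers and 7 in sh-Ctl livers. Summed over all T and NK cell markers, levels were 62.3 to 97.0 CPM in sh-Acsf3 livers and 9.72 to 34.2 CPM in sh-Ctl livers.

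Mmp12, the macrophage elastase, which was on the matrix remodelling list, had 9.70, 2.27, 11.7 and 3.23 CPM in sh-Acsf3 livers, against 0.136, 0, 0 and 0 CPM in sh-Ctl livers. It was present in every sh-Acsf3 library, with 90 UMIs in all, and had 1 UMI in all in sh-Ctl livers. Scaled to library totals, this is a ratio of 97.1 with a 95% exact interval of 17.0 to 3876, which covers counting error only. The fitted log2 difference of 6.06 ± 0.80 (edgeR adjusted p = 1.29e-06) depends on how the fit treats the zeros, and the call held in every leave-one-out fit.

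By edgeR with all 8 libraries, no marker on the lists of other immune and non-parenchymal cells passed. No member passed among 23 tested Kupffer cell and macrophage markers (median 0.05), 13 monocyte and neutrophil markers (0.28), 24 sinusoidal endothelial markers (0.12) or 6 cholangiocyte markers (0.22). The low-count filter left the macrophage markers Trem2, Gpnmb and Spic untested. Trem2 had 33 UMIs in sh-Acsf3 livers and 4 in sh-Ctl livers, and Gpnmb had 18 in sh-Acsf3 livers and 0 in sh-Ctl livers. Spic went the other way, with 24 UMIs in sh-Acsf3 livers and 40 in sh-Ctl livers. Of 9 tested B and plasma cell markers 7 were above 0 with a median of 1.17, and none passed. Igkc, the immunoglobulin kappa constant region, had 81.7, 26.1, 11.1 and 13.9 CPM in sh-Acsf3 livers, against 7.62, 11.7, 6.06 and 5.77 CPM in sh-Ctl livers (2.06 ± 0.58, edgeR adjusted p = 0.181). Its groups overlap by 1 library each, and sh-Acsf3 replicate 1 is the highest. Without that library the difference was 1.20.

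Of 8 tested genes of MHC class II presentation, which displays peptides to CD4 T cells, none passed with all libraries. For H2-Aa, H2-Ab1 and H2-Eb1 sh-Ctl replicate 1 set the result. H2-Aa had 150, 52.4, 90.3 and 102 CPM in sh-Acsf3 livers, against 186, 27.2, 15.9 and 26.4 CPM in sh-Ctl livers, and H2-Ab1 had 72.8, 41.5, 80.4 and 57.7 CPM in sh-Acsf3 livers, against 127, 17.2, 16.9 and 21.3 CPM in sh-Ctl livers. In both, every sh-Acsf3 library lay above 3 sh-Ctl libraries and 1 sh-Ctl library lay above them all. With all libraries the log2 differences were 0.56 ± 0.45 for H2-Aa and 0.40 ± 0.38 for H2-Ab1 (edgeR adjusted p = 0.887 and 0.915). Without sh-Ctl replicate 1 they were 2.07 and 1.77 (edgeR adjusted p = 0.00903 and 0.00268), and H2-Eb1 passed too (1.80, adjusted p 0.0458). Lgals3, the macrophage galectin, had 26.5, 12.6, 29.6 and 15.2 CPM in sh-Acsf3 livers, against 21.5, 6.11, 4.78 and 4.86 CPM in sh-Ctl livers, and passed without the same library (1.97, edgeR adjusted p = 0.0129). So did Vcam1, an adhesion molecule for lymphocytes, with 13.1, 10.4, 9.27 and 8.77 CPM in sh-Acsf3 livers, against 8.31, 4.16, 1.59 and 3.95 CPM in sh-Ctl livers (1.06 ± 0.27 with all libraries, adjusted p 0.0807, and 1.66 without sh-Ctl replicate 1, adjusted p 0.00265). Vcam1, which is also on the sinusoidal endothelial list, passed with all libraries by limma-voom (1.14, adjusted p 0.0429).

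A pair of cell cycle genes rose. Ccnd1, cyclin D1, which activates the kinases CDK4 and CDK6 in early G1, had 137, 72.6, 99.5 and 107 CPM in sh-Acsf3 livers, against 57.3, 37.8, 28.0 and 31.6 CPM in sh-Ctl livers (1.40 ± 0.29, edgeR adjusted p = 0.012). It missed the threshold without sh-Ctl replicate 2, 3 or 4 or sh-Acsf3 replicate 1 (1.25 to 1.39, adjusted p 0.0554 to 0.114). LTO1, on the opposite strand, overlaps Ccnd1 and had 175 UMIs in the 8 libraries, against 2255 for Ccnd1, and the strand setting of the counting is not given in the sources used here. Cdkn2c, an inhibitor of the same kinases, had 13.8, 17.4, 16.7 and 11.5 CPM in sh-Acsf3 livers, against 5.72, 5.55, 6.69 and 7.59 CPM in sh-Ctl livers (1.26 ± 0.23, edgeR adjusted p = 0.00199), and passed in every leave-one-out fit. Genes of DNA replication and mitosis did not pass: of 27 tested cell cycle genes these were the only 2 called, and the list's median was 0.07. Mki67, the proliferation antigen, differed by 0.52 ± 0.86 and Top2a, the replication topoisomerase, by -0.61 ± 0.66. Cdc20, an activator of the anaphase complex, had 14.6, 2.02, 1.79 and 1.85 CPM in sh-Acsf3 livers, against 1.36, 1.11, 2.87 and 0.607 CPM in sh-Ctl livers, with only sh-Acsf3 replicate 1 above the sh-Ctl range (1.66 ± 0.72, edgeR adjusted p = 0.612). Without that library the differences were 0.40 for Cdc20 and -0.51 for Mki67, and without sh-Ctl replicate 1 that of Top2a was 0.59.

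The remaining rise and the remaining falls were genes outside these groups. Pnkd, a mitochondrial and membrane protein linked in humans to paroxysmal dyskinesia, had 34.7, 32.7, 42.1 and 31.4 CPM in sh-Acsf3 livers, against 15.0, 13.1, 22.3 and 23.1 CPM in sh-Ctl livers (0.96 ± 0.18, edgeR adjusted p = 0.00331). It missed the threshold without sh-Ctl replicate 2 (0.84, adjusted p 0.0508). The span of Tmbim1 overlaps that of Pnkd on the opposite strand, with 995 UMIs in the 8 libraries, against 864 for Pnkd. The strand setting is not given, and whether UMIs of 1 gene were counted for the other was not tested.

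Cyp2u1, a cytochrome P450 that hydroxylates long-chain fatty acids, fell. It had 29.9, 41.9, 45.7 and 42.0 CPM in sh-Acsf3 livers, against 55.1, 78.0, 63.4 and 74.1 CPM in sh-Ctl livers (-0.75 ± 0.17, edgeR adjusted p = 0.0199), and missed the threshold without sh-Ctl replicate 2 or 4 or sh-Acsf3 replicate 1 (-0.70 to -0.63, adjusted p 0.11 to 0.245). Sgpp1, a phosphatase that removes the phosphate of sphingosine-1-phosphate, fell too, with 30.6, 50.8, 31.1 and 36.5 CPM in sh-Acsf3 livers, against 53.0, 56.9, 58.0 and 65.0 CPM in sh-Ctl livers (-0.62 ± 0.14, edgeR adjusted p = 0.0221). For Sgpp1 the nearest libraries were sh-Acsf3 replicate 2 and sh-Ctl replicate 1, and the call held only without one of those 2. Without any of the other 6 libraries the difference was -0.63 to -0.53 (adjusted p 0.0668 to 0.257).

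**Figure D2:**
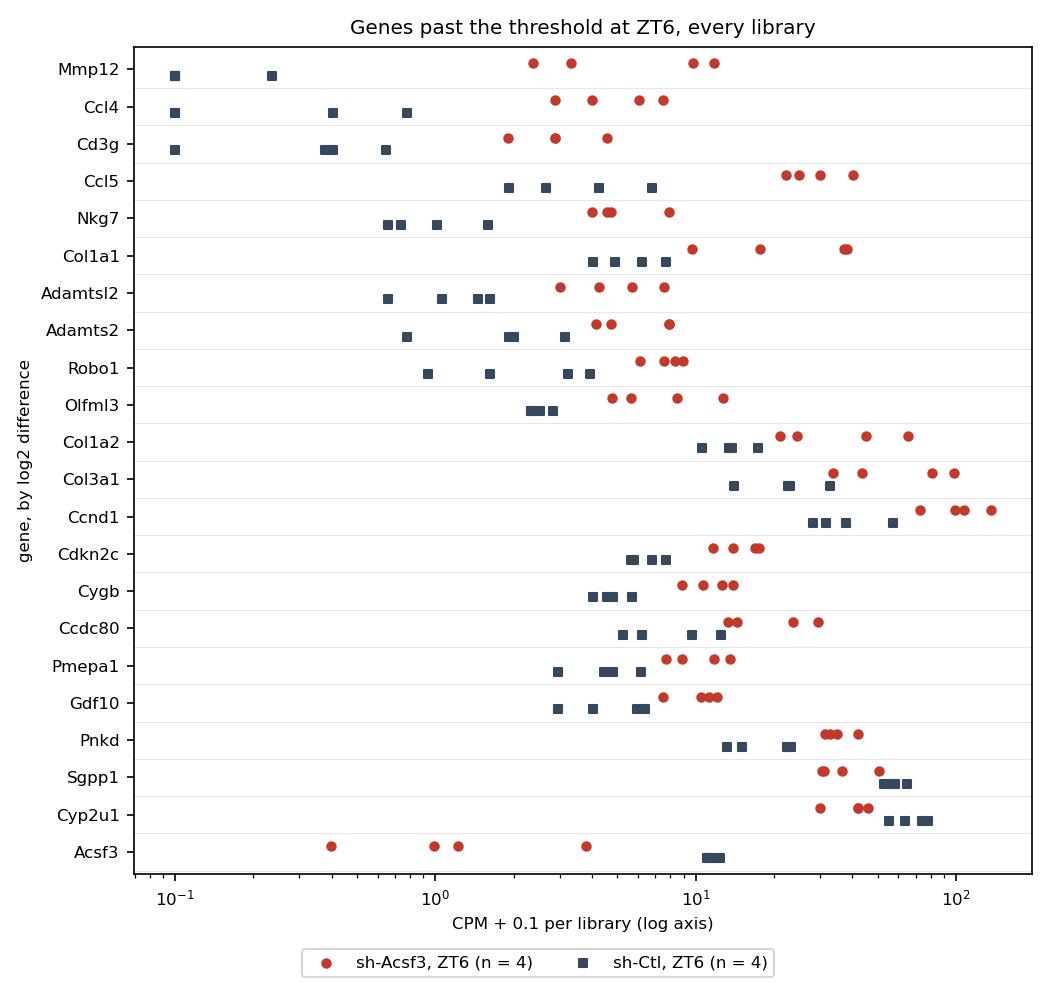
CPM of every ZT6 library, with 0.1 added, on a log axis for the 22 genes that passed, ordered by log2 difference, with red circles for sh-Acsf3 and dark squares for sh-Ctl livers (n = 4 each). In every gene the circles and squares form separate sets, with Mmp12 at the top (2.27 to 11.7 CPM in sh-Acsf3 livers, 0 to 0.136 CPM in sh-Ctl livers) and Acsf3 at the bottom.

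In the lists of hepatocyte metabolism other than that of malonyl-CoA no gene passed by edgeR with all libraries. No member passed among 19 tested genes of mitochondrial fatty acid oxidation (median log2 difference -0.0046), 36 of respiratory complex I (-0.02), 28 of the TCA cycle and pyruvate entry (-0.14), 25 of the breakdown of propionate and branched-chain amino acids (-0.03) and 15 of the urea cycle (0.07). The same was true of 25 PPARalpha and fasting targets (0.21), 22 genes of gluconeogenesis and the insulin response (0.07), 15 of glycolysis and fructose use (-0.24), 18 of bile acid synthesis and transport (-0.19) and 23 of cholesterol synthesis (0.07). Of the 28 TCA cycle genes 18 were below 0. Sdha, the flavoprotein subunit of succinate dehydrogenase, had 220, 215, 192 and 219 CPM in sh-Acsf3 livers, against 278, 274, 250 and 256 CPM in sh-Ctl livers, a narrow gap between groups that did not pass (-0.32 ± 0.11, edgeR adjusted p = 0.355). Hibch, which hydrolyses a valine breakdown intermediate, had 37.7, 31.2, 32.6 and 49.4 CPM in sh-Acsf3 livers, against 58.1, 55.8, 43.7 and 61.0 CPM in sh-Ctl livers (-0.56 ± 0.16, edgeR adjusted p = 0.187), and passed without sh-Acsf3 replicate 4 (-0.69, adjusted p 0.0471). Khk, the fructose kinase, differed by -0.59 ± 0.24 (edgeR adjusted p = 0.555). Cyp3a11, the main xenobiotic P450 of mouse liver, had 3176, 3551, 3117 and 3253 CPM in sh-Acsf3 livers, against 1607, 1950, 2486 and 2386 CPM in sh-Ctl livers, and did not pass by edgeR (0.64 ± 0.16, adjusted p = 0.0807). It passed by limma-voom (0.65, adjusted p 0.0429) and DESeq2 (0.64, adjusted p 0.0376). Cyp2c40, a P450 of the same xenobiotic list, had 1.49, 1.39, 0.897 and 1.39 CPM in sh-Acsf3 livers, against 11.7, 5.00, 14.0 and 8.20 CPM in sh-Ctl livers, so that its groups did not overlap. Its difference of -2.88 ± 0.76 did not pass by edgeR over all 64 libraries (adjusted p = 0.112), and it passed by DESeq2 (-2.91, adjusted p 0.0437) and by edgeR on the 8 ZT6 libraries alone (-2.88, adjusted p 0.0038). It was named after its values had been seen.

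**Figure D3:**
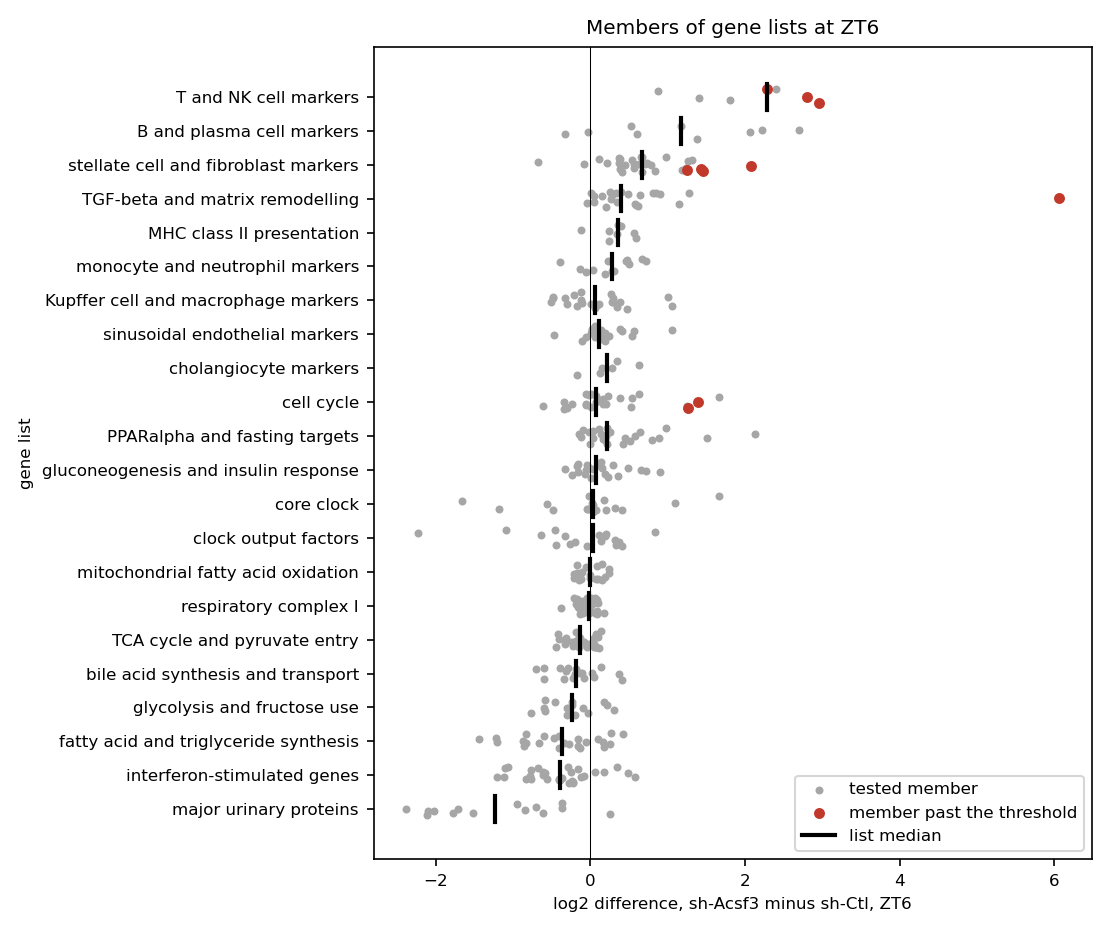
Log2 difference between sh-Acsf3 and sh-Ctl livers at ZT6 for the tested members of 22 gene lists, with grey points for members that did not pass, red points for those that did and a black bar for each list's median. Red points occur in the T and NK cell, stellate cell, matrix remodelling and cell cycle lists, and the medians run from 2.29 for T and NK cell markers to -1.24 for major urinary proteins.

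Fatty acid and triglyceride synthesis had a median log2 difference of -0.37 over 24 tested genes, 18 of them below 0, and no gene passed. This value rested on sh-Ctl replicate 1, without which the median was 0.06. Fasn, the fatty acid synthase, had 621, 132, 310 and 397 CPM in sh-Acsf3 livers, against 1548, 510, 227 and 289 CPM in sh-Ctl livers. Gpam, which starts glycerolipid synthesis, had 159, 83.1, 102 and 115 CPM in sh-Acsf3 livers, against 619, 204, 102 and 126 CPM in sh-Ctl livers (-1.21 ± 0.40, edgeR adjusted p = 0.357, and -0.33 without sh-Ctl replicate 1). Thrsp, a regulator of lipogenesis, had 241, 47.5, 116 and 127 CPM in sh-Acsf3 livers, against 840, 358, 105 and 118 CPM in sh-Ctl livers. In each the first sh-Ctl library was the highest of the 8, while sh-Ctl replicates 3 and 4 lay within the sh-Acsf3 range. Without sh-Ctl replicate 1 the difference of Fasn was 0.09, against -0.83 with all libraries, and that of Thrsp was -0.55, against -1.44 with all libraries. G6pdx, the entry enzyme of the pentose phosphate pathway, had 5.22, 2.27, 2.99 and 0.923 CPM in sh-Acsf3 livers, against 34.6, 1.39, 3.19 and 3.95 CPM in sh-Ctl livers (-2.08 ± 0.54, edgeR adjusted p = 0.0958, and 0.01 without sh-Ctl replicate 1). It passed without sh-Ctl replicate 2 (-2.41, adjusted p 0.0205) or 3 (-2.34, adjusted p 0.0437), fits that keep the high library.

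Interferon-stimulated genes had a median of -0.39 over 32 tested members, with 27 below 0 and none past the threshold, and of 0.02 without sh-Ctl replicate 1. Ifit1, an interferon-induced protein that binds viral RNA, had 12.7, 10.5, 12.9 and 12.9 CPM in sh-Acsf3 livers, against 35.9, 32.2, 26.5 and 7.90 CPM in sh-Ctl livers (-1.11 ± 0.39, edgeR adjusted p = 0.441). Here 3 sh-Ctl libraries were above all sh-Acsf3 libraries and replicate 4 was below them.

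Major urinary proteins, pheromone carriers secreted by male mouse liver under growth hormone control, had the lowest median of the hepatocyte lists at -1.24, with 13 of 14 tested genes below 0 and none past the threshold. Mup11 had 840, 5373, 869 and 1185 CPM in sh-Acsf3 livers, against 2357, 15084, 16438 and 9239 CPM in sh-Ctl livers (-2.38 ± 0.75, edgeR adjusted p = 0.284). Mup12 had 71.3, 149, 84.3 and 42.0 CPM in sh-Acsf3 livers, against 88.4, 416, 405 and 300 CPM in sh-Ctl livers (-1.77 ± 0.51, edgeR adjusted p = 0.2). In both, sh-Ctl replicate 1 fell among the sh-Acsf3 values, and without it the list's median was -1.63 and Mup12 passed (-2.08, adjusted p 0.0484). Mup11 passed without sh-Acsf3 replicate 2, its highest sh-Acsf3 library (-3.48, adjusted p 0.0492). The Mup genes are near-identical, so reads of 1 can be counted for another.

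Clock genes were examined because the comparison is of a single time of day. None of 17 tested core clock genes passed, and their median was 0.03. Genes of the positive limb differed by 0.32 ± 0.37 for Arntl, 0.20 ± 0.22 for Clock and 1.67 ± 0.89 for the weakly counted Npas2, which was 1.02 without sh-Acsf3 replicate 3. Nr1d1, which encodes REV-ERB-alpha, had 29.1, 16.2, 23.0 and 45.7 CPM in sh-Acsf3 livers, against 10.3, 22.5, 29.3 and 23.1 CPM in sh-Ctl livers (0.40 ± 0.37), and its groups overlap.

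The Per genes had the smallest p of the clock list, and not all in 1 direction. Per3 had 6.72, 4.67, 3.29 and 7.85 CPM in sh-Acsf3 livers, against 12.0, 20.3, 8.61 and 7.59 CPM in sh-Ctl livers (-1.18 ± 0.33, edgeR adjusted p = 0.144). Per2 had 3.36, 2.27, 1.49 and 6.00 CPM in sh-Acsf3 livers, against 16.3, 11.7, 2.55 and 3.64 CPM in sh-Ctl livers (-1.66 ± 0.52, edgeR adjusted p = 0.284). The highest Per2 values were in sh-Ctl replicates 1 and 2, and without replicate 1 the difference was -1.05. Per1 had 6.34, 3.91, 1.49 and 5.08 CPM in sh-Acsf3 livers, against 2.18, 1.67, 1.59 and 1.82 CPM in sh-Ctl livers (1.09 ± 0.46, edgeR adjusted p = 0.59), with 3 sh-Acsf3 libraries above every sh-Ctl library.

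Among 18 tested clock output factors none passed and the median was 0.04. Wee1, a mitotic kinase under clock control, had 3.73, 2.40, 2.99 and 5.54 CPM in sh-Acsf3 livers, against 8.44, 8.89, 5.10 and 5.47 CPM in sh-Ctl livers (-1.09 ± 0.27, edgeR adjusted p = 0.0675). It passed without sh-Ctl replicate 3 (-1.19, adjusted p 0.0481) or sh-Acsf3 replicate 4 (-1.29, adjusted p 0.0192) and not without sh-Ctl replicate 1 (-0.96, adjusted p 0.247). With all libraries it passed by limma-voom (-1.19, adjusted p 0.0312) and with the replicate number as a block (-1.11, adjusted p 0.0498). Nampt, the rate-limiting enzyme of NAD salvage, had 31.0, 27.0, 30.5 and 32.8 CPM in sh-Acsf3 livers, against 68.5, 41.1, 32.8 and 42.2 CPM in sh-Ctl livers (-0.63 ± 0.19, edgeR adjusted p = 0.254), and its lowest sh-Ctl library lay level with the highest sh-Acsf3 library. Without sh-Ctl replicate 1 its difference was -0.36. Rgs16, a fasting- and feeding-responsive regulator of G protein signalling, had 3.73, 1.26, 14.0 and 1.39 CPM in sh-Acsf3 livers, against 52.8, 15.8, 5.42 and 12.8 CPM in sh-Ctl livers (-2.23 ± 0.66, edgeR adjusted p = 0.216). Its value rests on single libraries: it passed without sh-Acsf3 replicate 3 (-3.57, adjusted p 0.0374), and was -1.22 without sh-Ctl replicate 1 (adjusted p 0.766).

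**Figure D4:**
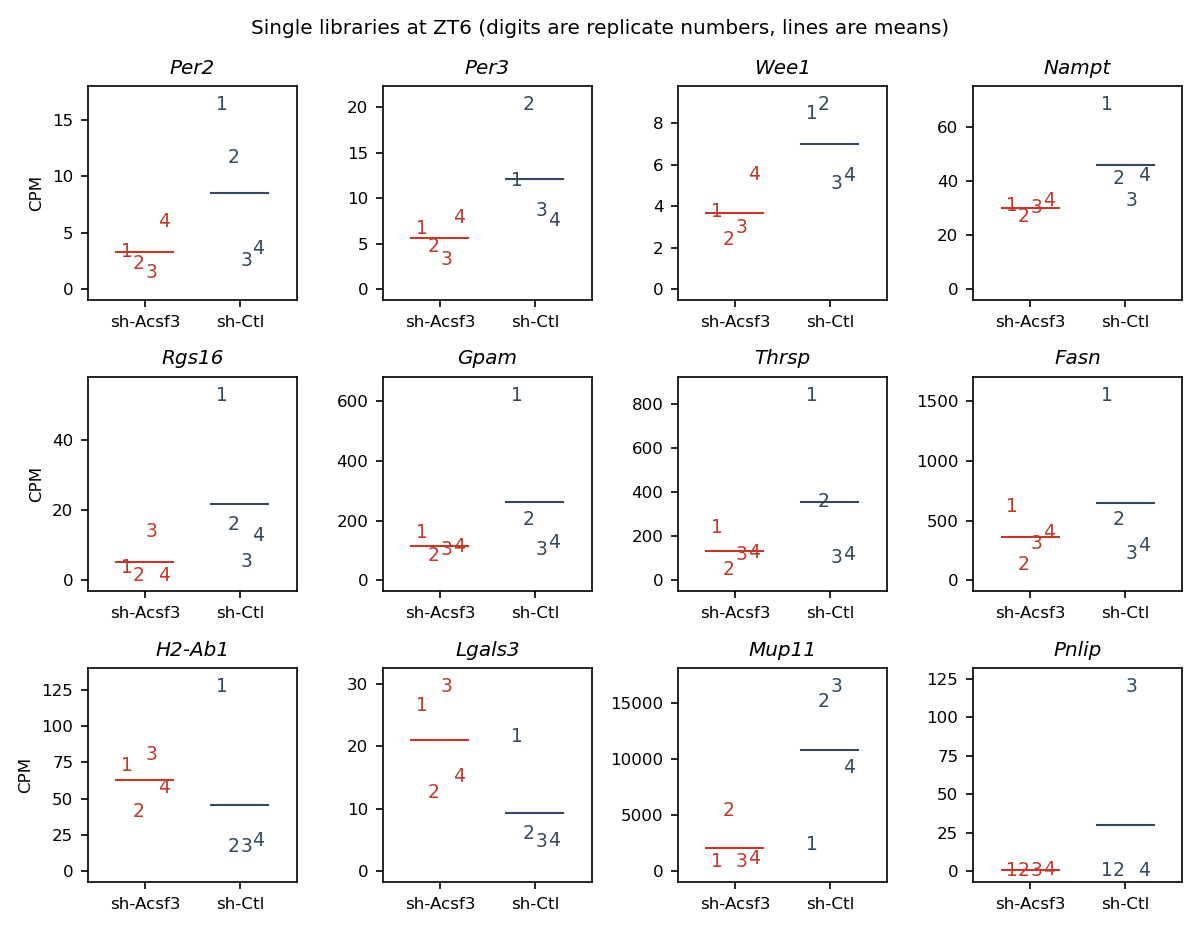
CPM of single ZT6 libraries for 12 genes that did not pass the test, with digits for the replicate number, red on the left for sh-Acsf3 and dark on the right for sh-Ctl livers, and a line at each group's mean (n = 4 each). The digit 1 of sh-Ctl stands at the top in Nampt, Rgs16, Gpam, Thrsp, Fasn and H2-Ab1 and at the bottom of its group in Mup11 (2357 CPM), and the digit 3 of sh-Ctl stands alone in the pancreatic lipase gene Pnlip (120 CPM).

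The time series allows a direct test of whether the ZT6 difference departs from the mean difference at the other 7 times. By edgeR no gene passed this test (0 of 10097, 429 at an unadjusted p under 0.05). All 22 genes called at ZT6 passed in the mean of the other 7 times with the same sign, beside 1355 of all genes (13.4%), and all 22 had the same sign at each of the other 7 times. Taken singly, the times gave 52 called genes at ZT0, 7 at ZT3, 22 at ZT6, 36 at ZT9, 141 at ZT12, 3 at ZT15, 17 at ZT18 and 32 at ZT21.

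Ccl5 differed by 2.80 ± 0.34 at ZT6, against 3.47 ± 0.16 in the mean of the other times, where single times ran between 3.00 and 4.16. Col1a1 differed by 2.08 ± 0.44 at ZT6, against 2.03 ± 0.18 in the mean of the other times. For Acsf3 the difference was -3.21 ± 0.38 at ZT6, against -2.09 ± 0.14 in the mean of the other times, with -3.11 the lowest single time. Robo1 differed by 1.68 ± 0.37 at ZT6, against 0.49 ± 0.16 at the other times, and the test of that gap gave 1.18 ± 0.40 with an unadjusted p of 0.00464 and an edgeR adjusted p of 1.00.

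**Figure D5:**
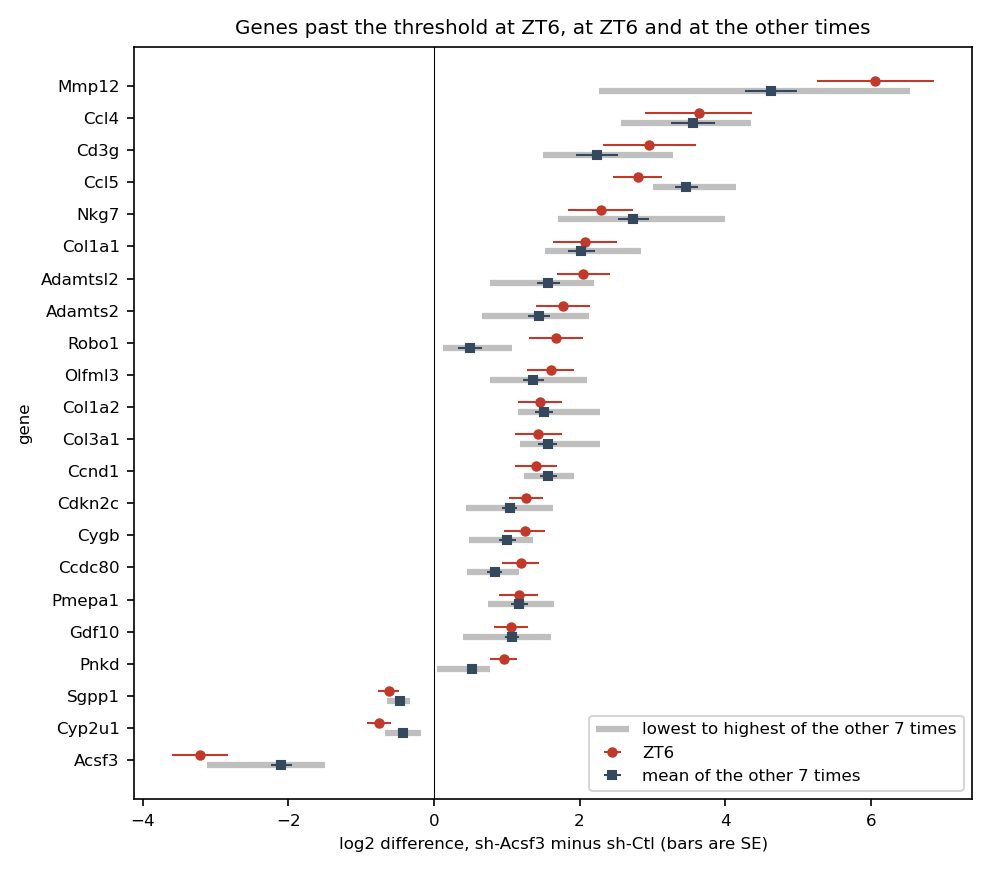
Log2 difference between sh-Acsf3 and sh-Ctl livers for the 22 genes that passed at ZT6, with red circles for ZT6, dark squares for the mean of the other 7 times, error bars of 1 SE and grey bars from the lowest to the highest of the other 7 times. All points of a gene lie on the same side of 0, and the ZT6 value of Robo1 (1.68) lies above its grey bar (0.13 to 1.07).

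The genes with the smallest p for a departure at ZT6 were not among the 22. Fgl2, which encodes a fibrinogen-like protein of macrophages and T cells, had 2.99, 2.90, 4.18 and 6.00 CPM in sh-Acsf3 livers, against 13.8, 4.16, 2.87 and 4.55 CPM in sh-Ctl livers at ZT6. Its difference was -0.87 ± 0.34 at ZT6 and between 0.50 and 1.36 at each of the other times, a gap of -1.76 ± 0.38 with an edgeR adjusted p of 0.171. The sh-Ctl value of replicate 1 is the highest of the 8, and without sh-Ctl replicate 1 the ZT6 difference was -0.03. The same gap was -1.16 for Wee1, -2.39 for G6pdx and -0.68 for Ppat, an enzyme of purine synthesis, and none passed. The ZT6 difference of Ppat itself (-0.73, adjusted p 0.0791) passed without sh-Ctl replicate 1 (-0.80, adjusted p 0.0439) or sh-Acsf3 replicate 4 (-0.87, adjusted p 0.0193), and by limma-voom with all libraries (-0.76, adjusted p 0.0312). Per2 and Per3 differed from their other times by -1.69 ± 0.55 and -1.20 ± 0.37, with edgeR adjusted p of 1.00. At the other 7 times Per2 differed by -0.62 to 0.45.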

How the data were processed

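Liver RNA of 64 samples (2 hairpins, 8 zeitgeber times 3 h apart, 4 replicates) was deposited by the authors as raw UMI counts per gene, of which the 8 libraries at ZT6 are described here. The submitters' processing notes name STAR and the mouse build GRCm38 (mm10). The annotation release, UMI merging and strand setting are not given in the sources used here. Counting by 3′ ends means that a value reflects tagged molecules and not transcript length.

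From the counts, genes were kept by filterByExpr (minimum count 10, minimum total 15), scaled by TMM and tested with edgeR 4.0.16 (quasi-likelihood, robust, 16 group means) in R 4.3.3, with Benjamini-Hochberg adjustment over 10097 genes and a threshold of 0.05. A second contrast set the ZT6 difference against the mean difference at the other 7 times. Errors are SE of the log2 difference unless given as SD. Gene positions are from GENCODE M21. Figures were drawn with matplotlib 3.10.9.

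The members, gene lists and tests were chosen with earlier results of these data known, so no list is independent support. The rule for named genes took Acsf3, the 12 largest rises and 12 largest falls past the threshold with a mean CPM of at least 5, the tested core clock genes, up to 3 called members of each list (or its member with the smallest p) and the 8 smallest p against the other times. Adamts2, Adamtsl2, Ccl4, Robo1 and Cyp2c40, and many of the genes given that did not pass, were chosen after their values had been seen. In simulated counts of 9985 genes the test found 24% of 50 genes changed 1.5-fold, 76% at 2-fold and 100% at 3-fold and at 4-fold, with 7 false calls of 157. The simulation changed only genes at 5 CPM or more, drew counts without the extra spread of single genes and held no deviant library. It cannot show how often changes are missed in the real counts, where Mup11 (-2.38) and Cyp2c40 (-2.88) did not pass. Alternatives were other scalings and filters, limma-voom 3.58.1, DESeq2 1.42.0, a replicate block, the ZT6 libraries alone and leaving out each library.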

Additional observations from a re-analysis of the deposited data

Results flagged for a closer look

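Within the ZT6 groups, single libraries were tested for standing apart from the other 3 of their group (gap over range above Dixon's critical value for 4 samples). Of 156 groups tested 20 passed, where chance gives about 1 in 20, or 7.8. The groups were those of 74 reported genes and of library measures. Many of these genes were chosen after their values had been seen, and all share the same 8 libraries. The 20 against 7.8 is therefore no measure of an excess over chance. Their part in the results was not tested beyond the values given without the library.

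The sh-Ctl replicate 1 library was highest of its group for H2-Aa (186 CPM, next 27.2), H2-Ab1 (127 CPM, next 21.3), Lgals3 (21.5 CPM, next 6.11), Acaca (78.8 CPM, next 25.8), Acacb (70.8 CPM, next 21.9), H2-Eb1 (156.6 CPM, next 26.1), G6pdx (34.6 CPM, next 3.95) and Fgl2 (13.8 CPM, next 4.55). It also held the only Mmp12 UMI of its group (0.136 CPM) and the highest total count (6063636 UMIs, next 3641185).

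The sh-Ctl replicate 3 library was highest for Pnlip (119.8 CPM, next 0.607), Acta2 (23.3 CPM, next 3.27) and for the sum of pancreas enzyme genes (1011 CPM, next 16.4). The sh-Ctl replicate 4 library was lowest for Timp2, an inhibitor of matrix proteases (6.68 CPM, next 8.31).

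Among sh-Acsf3 libraries, replicate 1 was highest for Cdc20 (14.6 CPM, next 2.02) and Mki67 (4.10 CPM, next 0.923) and replicate 2 was highest for Mup11 (5373 CPM, next 1185) and lowest for Ifit1 (10.5 CPM, next 12.7). Replicate 3 was lowest for Sdha (192 CPM, next 215) and highest for Npas2 (1.49 CPM, next 0.462).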

How the results depend on the processing

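The Acsf3 fall held under all alternatives run (-3.81 to -2.92 when single libraries were left out). The count of 22 genes (19 higher, 3 lower) was the same with RLE scaling and was 14 (12 higher) with library sizes alone. The genes lost with library sizes alone were Col3a1, Ccnd1, Cygb, Ccdc80, Pmepa1, Gdf10, Robo1 and Sgpp1 (edgeR adjusted p 0.0646 to 0.087). A mean CPM of at least 5 left 15 (12 higher), with Mmp12, Cd3g, Ccl4, Adamtsl2, Nkg7, Robo1 and Adamts2 untested. Without a gene filter it was 198 (86 higher, 112 lower), so that 43.4% of calls were higher, against 86.4% with the filter. DESeq2 gave 26 calls (6 lower) and limma-voom 28 (7 lower), with 19 of the 22 kept and Ccl4, Col1a1 and Col3a1 lost. The 8 ZT6 libraries alone gave 5 (3 higher), and that fit cannot give the contrast with other times. Fits to these 8 libraries, with or without the replicate block, left Mmp12, Cd3g, Ccl4 and Adamtsl2 untested. The replicate block gave 26 calls (5 lower) on all 64 libraries and 20 (5 lower) on the 8 alone. Same-numbered samples correlated at 0.281, -0.071, 0.197 and 0.194, not all above 0.1. For sh-Acsf3 replicates 1, 3 and 4 the same-numbered sh-Ctl sample correlated best, while for replicate 2 it was sh-Ctl replicate 3. The labels do not say whether the numbers pair samples, and the main test did not take them as pairs. Leaving out single libraries gave 8 to 43 calls (6 to 35 higher, 2 to 8 lower), and removing the library with pancreas RNA, sh-Ctl replicate 3, gave 16 (11 higher, 5 lower). Against the other times the count was 0 by edgeR, 0 to 1 with single libraries left out, 1 without the pancreas RNA library (Fgl2, adjusted p 0.0195), 113 without a gene filter, and 10 or 11 by DESeq2 without or with independent filtering. By DESeq2 the calls were 2210010C04Rik, Reg1, Cpa1, Cpb1, Pnlip, Ctrb1, Ctrl, Cela3b, Clps, Rnase1 and, with independent filtering, Prss2. All but 2210010C04Rik are on the pancreas enzyme list, and the calls without a gene filter include these genes. That list summed to 1011 CPM in sh-Ctl replicate 3 at ZT6 and to 10390.5 CPM in sh-Acsf3 replicate 2 at ZT21. The causes were not tested. The low-count filter left 23 of 30 T and NK cell markers untested.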
